A study of Mus musculus with 3 samples.

Results

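The Hox genes encode homeodomain transcription factors and lie in 4 clusters in the mouse genome, *Hoxa* on chromosome 6, *Hoxb* on chromosome 11, *Hoxc* on chromosome 15, and *Hoxd* on chromosome 2. They were chosen by symbol among the protein-coding RefSeq genes of the GRCm38 genome, without use of any methylation value. Of the 39 genes with such a symbol, 38 were analysed, out of 21774 protein-coding genes in all, with 10 each in *Hoxa* and *Hoxb* and 9 each in *Hoxc* and *Hoxd*. The study asked what the piRNA system and DNA methylation each contribute to silencing retrotransposons in male germ cells, using mice that lack PLD6, a mitochondrial protein needed to make piRNAs, or DNMT3L, a catalytically inactive partner of the *de novo* DNA methyltransferases. CpG methylation was measured by whole-genome bisulfite shotgun sequencing in spermatogonia sorted from testes at postnatal day 7 (P7) with an antibody against EpCAM, a surface adhesion protein. The 3 genotypes were WT, *Pld6* KO, and *Dnmt3l* KO (labelled Dnmt3L KO), all of strain C57BL6/J, and both mutant lines had been backcrossed to that strain before use. By the study's methods the WT category took in mice heterozygous for *Pld6* or *Dnmt3l* beside wild-type ones, and replicate mice were compared in each category. The sources used here do not say which of these animals the deposited tables stand for, or whether replicates were pooled in them. Each genotype had 1 library, so there was no replicate spread, and genotype and library cannot be told apart in any of the differences below.

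Hox genes give cells along the head-to-tail axis their regional identity, and their order on the chromosome follows the order in which they are expressed along the body. Their promoters are rich in CpG sites, and in cells that do not use them they are kept silent mainly by Polycomb group proteins, which modify histones, rather than by DNA methylation. In prospermatogonia most of the genome gains methylation before birth through DNMT3A and DNMT3L, whereas CpG islands usually do not.

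Levels are given in fraction values, as methylated calls over all calls pooled across the CpG sites of a region, where 1 call is the state of 1 CpG site in 1 read. No level was corrected for unconverted cytosines, which are read as methylated. The study's methods report a bisulfite conversion rate close to complete. How much of the lowest levels, and of the small differences between them, came from such cytosines was not tested. The WT library held 43757722 calls, that of *Pld6* KO 64076569, and that of *Dnmt3l* KO 19289688, or 2.0, 2.92, and 0.879 calls per CpG site, so the *Dnmt3l* KO library was the shallowest. Ranges in parentheses are 95% Wilson intervals of a level or Newcombe intervals of a difference. They cover counting error only, and since neighbouring calls of a read are linked and no molecular identifiers were used, they are too narrow. The nuclear genome stood at 0.703, 0.723, and 0.301 in the same order. As a check of the labels, exon 1 of *Pld6* held 90 calls in WT, with 0 in *Pld6* KO and 40 in *Dnmt3l* KO spermatogonia. Exons 4 to 9 of *Dnmt3l*, with 15 CpG sites, held 16, 51, and 0 calls, while exon 11 held 17 calls in the *Dnmt3l* KO library, and the deleted part of this gene is not given in the sources used here. The paternally methylated control region of *H19* stood at 0.859, 0.884, and 0.148, and the maternally methylated *Kcnq1ot1* region, where somatic cells would add methylation, at 0.0780, 0.0700, and 0.0154. *Snrpn* also has a maternally methylated region, but the window taken, within 0.5 kb of the start of its gene record, held only 6 CpG sites. Whether this window lies in that region was not checked. In it 2 of 2 calls were methylated in WT and 4 of 7 in *Pld6* KO, with 0 calls in *Dnmt3l* KO spermatogonia, too few for a level.

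The letters of 4 promoters show how the CpG content that the results turn on looks at a Hox gene. Each is the RefSeq sequence of the 250 bases before a transcript start, written 5′ to 3′ in the direction of transcription on GRCm38, with every CpG in capitals. *Hoxa7* (chr6:52218574-52218823, minus strand) and *Hoxc4* (chr15:103034145-103034394, plus strand) had the highest WT levels among the 18 such windows with at least 10 WT calls. *Hoxa3* (chr6:52213068-52213317, minus strand) and *Hoxd10* (chr2:74691641-74691890, plus strand) are the windows with the most WT calls among the 13 with no methylated WT call.
Hoxa7: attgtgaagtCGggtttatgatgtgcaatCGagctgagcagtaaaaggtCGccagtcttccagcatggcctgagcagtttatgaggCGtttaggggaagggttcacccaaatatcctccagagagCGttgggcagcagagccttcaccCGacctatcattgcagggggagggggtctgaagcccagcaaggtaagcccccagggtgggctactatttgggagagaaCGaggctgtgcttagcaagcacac
Hoxc4: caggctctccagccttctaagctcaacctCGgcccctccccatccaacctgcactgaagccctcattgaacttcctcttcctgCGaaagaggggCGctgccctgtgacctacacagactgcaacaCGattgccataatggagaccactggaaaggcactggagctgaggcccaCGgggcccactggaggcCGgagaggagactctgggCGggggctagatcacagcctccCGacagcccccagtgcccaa
Hoxa3: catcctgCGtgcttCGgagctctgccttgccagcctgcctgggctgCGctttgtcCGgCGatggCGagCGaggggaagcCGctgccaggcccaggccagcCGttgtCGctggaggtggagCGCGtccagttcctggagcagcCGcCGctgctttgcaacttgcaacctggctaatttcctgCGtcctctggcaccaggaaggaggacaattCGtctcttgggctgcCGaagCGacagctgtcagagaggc
Hoxd10: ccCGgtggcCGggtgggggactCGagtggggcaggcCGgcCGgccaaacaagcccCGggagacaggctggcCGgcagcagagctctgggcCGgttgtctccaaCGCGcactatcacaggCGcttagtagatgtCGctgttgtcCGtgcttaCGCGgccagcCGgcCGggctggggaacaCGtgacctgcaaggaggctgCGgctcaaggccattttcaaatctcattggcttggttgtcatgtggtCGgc
The *Hoxa7* and *Hoxc4* windows hold 7 and 8 CpG sites, and the *Hoxa3* and *Hoxd10* windows hold 18 and 20. In WT spermatogonia 2 of 19 calls were methylated at *Hoxa7* and 2 of 24 at *Hoxc4*, against 0 of 92 at *Hoxa3* and 0 of 86 at *Hoxd10*. A count of 0 allows a level of up to 0.0326 at *Hoxa3* and 0.0349 at *Hoxd10*. These last 2 windows were picked for their many calls, which favours windows rich in CpG sites. The *Hoxb1* window, with 7 CpG sites, also had no methylated call (0 of 19), and that of *Hoxa5*, with 28, had 5 of 105. So the 4 windows do not show how level goes with CpG content. Sequence was at hand for 22 of the 38 members, in 24 windows. The printed *Hoxc4* and *Hoxd10* windows precede curated transcript starts that lie 16.3 and 7.62 kb from the outermost start of the gene record. They are outside the promoters of these genes as taken below from that outermost start.

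Most Hox genes began in unmethylated DNA in WT spermatogonia. A promoter was taken as 2 kb before to 0.5 kb after the outermost start of the gene record, and all 38 Hox promoters had at least 10 calls in each library. The median Hox promoter stood at 0.0322 in WT, with 0.0529 in *Pld6* KO and 0.0121 in *Dnmt3l* KO spermatogonia, against 0.149, 0.184, and 0.0412 over all promoters with as many calls. A level below 0.1, called low here, was seen at 28 of 38 Hox promoters in WT (39.1% of all promoters), with 26 in *Pld6* KO (32.2%) and 35 in *Dnmt3l* KO (69.3%). Much of this went with CpG density. Among promoters with 20 to 39 CpG sites per kb, 14 of 19 Hox promoters were low in WT (54.9% of all such promoters), and with 40 or more, 13 of 14 (85.0%).

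**Figure D1:**
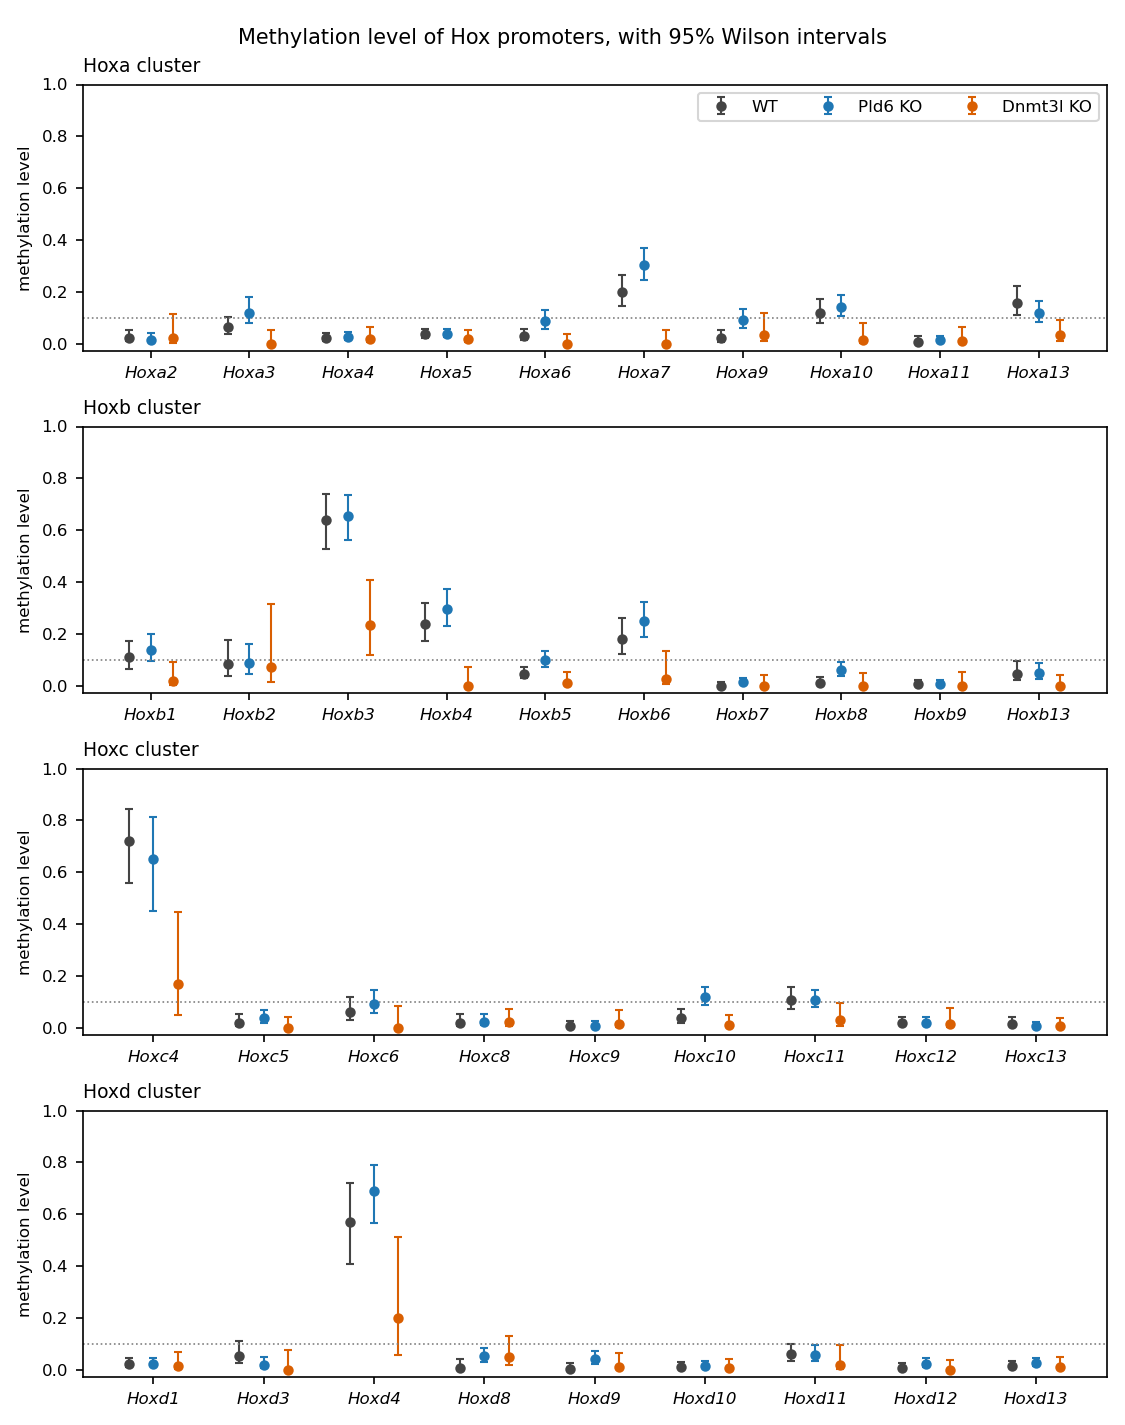
Methylation level of each of the 38 Hox promoters (fraction, y axis) by gene (x axis) in WT, *Pld6* KO, and *Dnmt3l* KO cells, with 1 panel per cluster and a dotted line at 0.1. Bars are 95% Wilson intervals of the calls of 1 library, and the 3 promoters that stood above 0.5 in WT and *Pld6* KO but not in *Dnmt3l* KO spermatogonia are *Hoxb3*, *Hoxc4*, and *Hoxd4*.

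Pooled by position along the body axis, the promoters of the head-end genes had the highest levels. Hox genes fall into 13 paralogue groups, numbered from the head end, and the 16 promoters of groups 9 to 13 stood at 0.0321 (0.0271 to 0.0380) in WT when pooled. The 11 promoters of groups 5 to 8 stood at 0.0461 (0.0386 to 0.0551) and the 11 of groups 1 to 4 at 0.106 (0.0927 to 0.122). CpG density ran the opposite way, with 41.6, 34.7, and 27.3 sites per kb. In *Pld6* KO spermatogonia the same 3 sets stood at 0.0477, 0.0790, and 0.131. In *Dnmt3l* KO spermatogonia groups 9 to 13 and 5 to 8 had overlapping intervals, at 0.0119 (0.00746 to 0.0190) and 0.0108 (0.00588 to 0.0198). Groups 1 to 4 stood at 0.0322 (0.0202 to 0.0510) there. *Hoxb3*, *Hoxc4*, and *Hoxd4* gave 48, 26, and 20 of the 185 methylated WT calls of groups 1 to 4. In *Dnmt3l* KO they gave 7, 2, and 2 of 17. The median WT promoter stood at 0.0170 in groups 9 to 13, 0.0277 in groups 5 to 8, and 0.0820 in groups 1 to 4.

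In WT spermatogonia the lowest promoter of each cluster was nearly free of methylated calls. *Hoxb7*, a gene of the trunk region, had 0 methylated of 248 calls in WT, which allows a level of up to 0.0121 and bears directly on unconverted cytosines at this place in this library. It had 6 of 417 in *Pld6* KO and 0 of 88 in *Dnmt3l* KO spermatogonia. *Hoxd9* stood at 0.00431, 0.0405, and 0.0118, *Hoxc9* at 0.00664, 0.00678, and 0.0123, and *Hoxa11*, which patterns the forearm and kidney, at 0.00781, 0.0123, and 0.0119. These 4 promoters hold between 39.6 and 46.8 CpG sites per kb. In *Dnmt3l* KO spermatogonia 12 of the 38 promoters had no methylated call, against 1 in WT and 0 in *Pld6* KO (19.1%, 1.10%, and 0.541% of all promoters), at a median of 72.5, 204, and 251 calls per promoter.

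Of the 38 promoters, 3 were methylated over most of their calls in WT spermatogonia, and all are of the head-end groups. *Hoxc4* stood at 0.722 in WT (26 of 36 calls), with 0.652 in *Pld6* KO (15 of 23) and 0.167 in *Dnmt3l* KO spermatogonia (2 of 12). *Hoxb3*, a hindbrain gene, stood at 0.640 (48 of 75), 0.655 (72 of 110), and 0.233 (7 of 30). *Hoxd4*, a gene of the hindbrain and neck, stood at 0.571 (20 of 35), 0.689 (42 of 61), and 0.20 (2 of 10). WT and *Pld6* KO had overlapping intervals at all 3, and *Dnmt3l* KO lay below both. These windows are thin in CpG sites, with 4.80 per kb at *Hoxc4*, 17.2 at *Hoxb3*, and a value between these at *Hoxd4*.

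At *Hoxc4* and *Hoxb3* the outermost start comes from a predicted transcript and lies far from the start of a curated transcript. At the curated start of *Hoxc4*, 16.3 kb downstream, with 23.6 CpG sites per kb, the levels stood at 0.106, 0.292, and 0.0213. *Hoxb3* has 2 curated starts. The first, 16.0 kb downstream, stood at 0.919, 0.821, and 0.455, with 12.0 sites per kb, and the second, 36.7 kb downstream, at 0.0601, 0.0789, and 0 of 31 calls, with 26.8 sites per kb. So *Hoxb3* had methylated and unmethylated starts within a single gene record, and the *Hoxc4* level depended on which start was taken. For *Hoxd4* the outermost start is the curated one.

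Another 7 promoters stood between 0.1 and 0.25 in WT spermatogonia. *Hoxb4* stood at 0.238, 0.297, and 0 of 50 calls, and *Hoxa7*, whose sequence is printed above, at 0.199, 0.304, and 0 of 68 calls. *Hoxb6* stood at 0.181, 0.248, and 0.0256, and at its curated start, 6.26 kb away, at 0.132, 0.0819, and 0.0606. In these 3 windows at the outermost start the methylation seen in WT and *Pld6* KO was nearly or wholly lacking in the *Dnmt3l* KO library. *Hoxa13*, needed for digits and the urogenital tract, stood at 0.158, 0.118, and 0.0319. *Hoxa10*, which patterns the uterus and lumbar spine, stood at 0.120, 0.142, and 0.0147. *Hoxb1*, a hindbrain gene, and *Hoxc11* stood at 0.109, 0.139, and 0.0169 and at 0.108, 0.108, and 0.0282. The remaining 28 promoters lay between 0 and 0.0820 in WT, the highest of them *Hoxb2*.

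In *Dnmt3l* KO spermatogonia the Hox promoters had little methylation to lose. A level lower than in WT by at least 0.3 was seen at 3 of 38 Hox promoters (24.0% of all promoters), which were *Hoxc4*, *Hoxb3*, and *Hoxd4*, the only Hox promoters with a WT level of at least 0.3. Over all promoters, 76.8% of those that started that high were lower by as much. The differences from WT were -0.556 (-0.725 to -0.231) at *Hoxc4*, -0.407 (-0.559 to -0.198) at *Hoxb3*, and -0.371 (-0.578 to -0.0214) at *Hoxd4*. The interval of the difference lay wholly below 0 at 11 of 38 Hox promoters (50.2% of all promoters) and wholly above 0 at none (71 of 18622 over all promoters), with a median difference of -0.0182 against -0.0842 over all promoters. At 7 of 38 promoters (7.34% of all promoters) the *Dnmt3l* KO level was the higher, by at most 0.0394, at *Hoxd8*.

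No Hox promoter was lower in *Pld6* KO than in WT spermatogonia by 0.3 (0.528% of all promoters), and most were slightly higher. The level was higher in *Pld6* KO at 32 of 38 Hox promoters (61.5% of all promoters), with differences from -0.0700 at *Hoxc4* to 0.117 at *Hoxd4*. The median difference was 0.0125 among Hox promoters and also 0.0125 over all promoters. Among promoters with 20 to 39 CpG sites per kb, 16 of 19 Hox promoters were higher in *Pld6* KO (67.2% of all such promoters), and with 40 or more, 12 of 14 (66.3%). The interval of the difference lay wholly above 0 at 9 of 38 (16.0% of all promoters) and wholly below 0 at none (981 of 20068 over all promoters). The 9 were *Hoxa3*, *Hoxa6*, *Hoxa7*, *Hoxa9*, *Hoxb5*, *Hoxb8*, *Hoxc10*, *Hoxd8*, and *Hoxd9*. At the curated start of *Hoxb8*, a few kb from the outermost, the interval of its difference ran from -0.0145 to 0.113. In a window of 0.5 kb on each side of the start the level was higher in *Pld6* KO at 21 of 37 Hox promoters (50.9% of all promoters), lower at 11, and equal at 5. With the main window and the mean of site levels it was higher at 29 of 38 Hox promoters. Over sites covered in all 3 libraries it was higher at 27 of 38. The share of all promoters was not taken for these last counts.

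The *Pld6* KO differences had the following sizes. *Hoxa7* stood at 0.199 in WT and 0.304 in *Pld6* KO, a difference of 0.105 (0.0179 to 0.189). *Hoxc10*, a gene of the lumbar region, stood at 0.0377 and 0.117, a difference of 0.0797 (0.0330 to 0.124). *Hoxa9*, which also acts in blood progenitors, stood at 0.0206 and 0.0913, a difference of 0.0707 (0.0272 to 0.116). All 3 promoters thus stayed mostly unmethylated in *Pld6* KO spermatogonia, and their *Dnmt3l* KO levels were 0 of 68 calls, 0.00901, and 0.0345. At *Hoxd4*, with few calls, the difference of 0.117 had an interval from -0.0768 to 0.309. Larger differences stood at 2 curated starts that are not the outermost ones, with 0.0959 in WT against 0.341 in *Pld6* KO at *Hoxc6* and 0.106 against 0.292 at *Hoxc4*. Their differences were 0.246 (0.116 to 0.364) and 0.186 (0.104 to 0.259).

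Around the start, the Hox genes lay in a wide trough. In bins of 0.25 kb pooled over the 38 genes, the WT level was lowest, at 0.00862, in the bin centred 0.375 kb after the start, where all genes together stood at 0.0538. Away from the start the difference grew. In the bin centred 4.875 kb before the start, Hox genes stood at 0.126 and all genes at 0.678 in WT. Of all the bins, the highest Hox value in WT, 0.286, was in the one centred 4.125 kb after the start, where *Pld6* KO stood at 0.362 and *Dnmt3l* KO at 0.116. Some Hox genes end before that distance. The outer bins can also fall on a neighbouring Hox gene or its promoter, so some calls were counted for more than 1 gene.

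**Figure D2:**
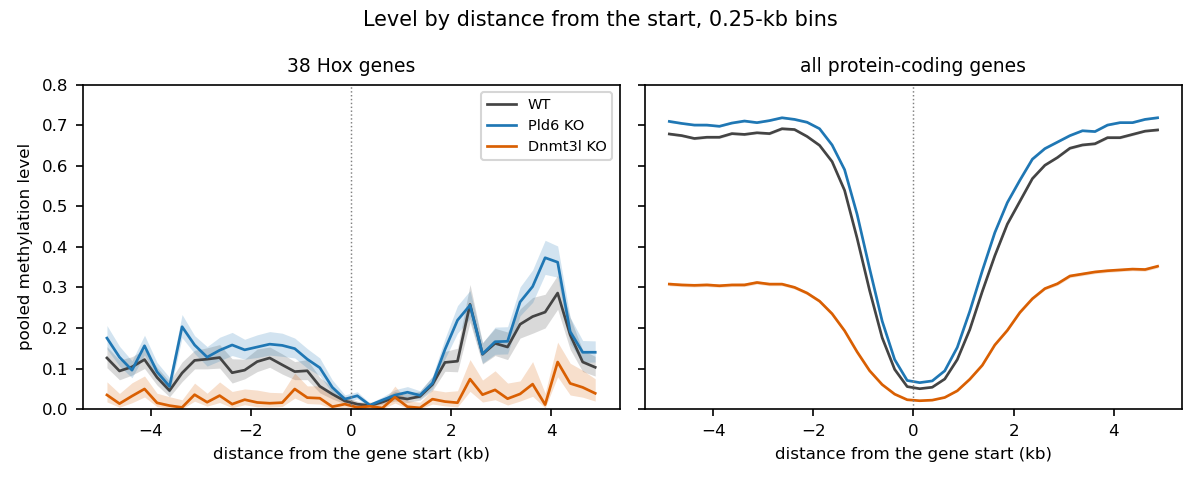
Pooled methylation level (fraction, y axis) against distance from the gene start (kb, x axis, bins of 0.25 kb) for the 38 Hox genes and for all protein-coding genes in the 3 libraries, with 95% Wilson intervals shaded. At 4.875 kb before the start the Hox genes stood at 0.126 in WT spermatogonia and all genes at 0.678.

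The clusters as whole regions were islands of low methylation within methylated surroundings. Pooled over the 4 clusters, from the outer end of the first Hox gene to that of the last (485 kb, 11795 CpG sites), the level was 0.129 (0.125 to 0.133) in WT, with 0.167 (0.163 to 0.171) in *Pld6* KO and 0.0388 (0.0354 to 0.0425) in *Dnmt3l* KO spermatogonia. Flanks of 100 kb on each side of the clusters stood at 0.546, 0.599, and 0.206, that of *Hoxa* on the *Hoxa2* side being taken a few kb away from the cluster. *Dnmt3l* KO clusters thus held 30.1% of the WT level, against 37.7% in the flanks and 42.8% over the nuclear genome. *Pld6* KO clusters held 130% of it, against 110% and 103%. As a difference from WT, however, *Pld6* KO was higher by 0.0382 in the clusters, 0.0532 in the flanks, and 0.0193 over the nuclear genome. These sizes depended on how calls were weighted. With the mean of site levels in place of pooled calls, the clusters stood at 0.142 in WT and 0.161 in *Pld6* KO. The flanks stood at 0.567 and 0.582. *Pld6* KO was still the higher, but by less, and the gap in the flanks was no longer the wider. Repeats covered 18.2% of the clusters and 29.6% of the flanks.

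The 4 clusters differed from each other. *Hoxd* stood at 0.0746, 0.0977, and 0.0249 in WT, *Pld6* KO, and *Dnmt3l* KO cells, *Hoxa* at 0.0839, 0.113, and 0.0225, *Hoxc* at 0.123, 0.171, and 0.0300, and *Hoxb* at 0.212, 0.249, and 0.0681. *Pld6* KO was the highest of the 3 libraries in every cluster, with differences from WT of 0.0231 to 0.0478 whose intervals lay above 0. The methylation of *Hoxb* lay mostly in the 74.7 kb between *Hoxb13* and *Hoxb9* (1069 of 1890 methylated WT calls), which stood at 0.365, 0.399, and 0.116, while its stretch from *Hoxb9* to *Hoxb1* stood at 0.139, 0.175, and 0.0455. The flank of *Hoxd* on the *Hoxd13* side, which holds *Evx2*, was also low, at 0.274 in WT against 0.752 on the other side. The flank of *Hoxa* on the *Hoxa13* side, which holds *Evx1*, stood at 0.393 against 0.765.

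Pooled over the 4 clusters, exons were the least and intergenic DNA the most methylated, but this order was not that of each cluster. Exons of the Hox genes stood at 0.0462 in WT, with 0.0633 in *Pld6* KO and 0.0128 in *Dnmt3l* KO spermatogonia. The parts of promoter windows outside transcripts stood at 0.0734, 0.113, and 0.0190, introns at 0.144, 0.189, and 0.0375, and the DNA between genes outside promoter windows at 0.223, 0.271, and 0.0693. The pooled order was the same in all 3 libraries. In *Hoxa* the WT introns, at 0.151, were above the intergenic DNA, at 0.0699. In *Hoxd* WT introns and intergenic DNA had overlapping intervals, at 0.116 and 0.111, and promoter windows, at 0.0289, were below exons, at 0.0437. Among the clusters, intergenic DNA in *Hoxc* had the widest gap of the 4 between WT and *Pld6* KO, at 0.187 (0.173 to 0.201) against 0.292 (0.277 to 0.308), whereas in *Hoxd* it stood at 0.111 in each.

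In steps of 1 kb the clusters alternated between unmethylated and methylated DNA. Of 462 steps in the clusters with at least 5 WT calls, 219 were low in WT (2.72% of steps genome-wide) and 156 stood at 0.5 or above, called methylated here (91.0%). In *Pld6* KO spermatogonia 194 of 477 steps were low (2.47%) and 183 methylated, and in *Dnmt3l* KO spermatogonia 313 of 413 were low (20.5%) and 11 methylated. Of the 120 WT-methylated steps with enough calls in both libraries, 108 were lower by at least 0.3 in *Dnmt3l* KO spermatogonia (78.0% of WT-methylated steps genome-wide). That is 90.0% of the 120.

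**Figure D3:**
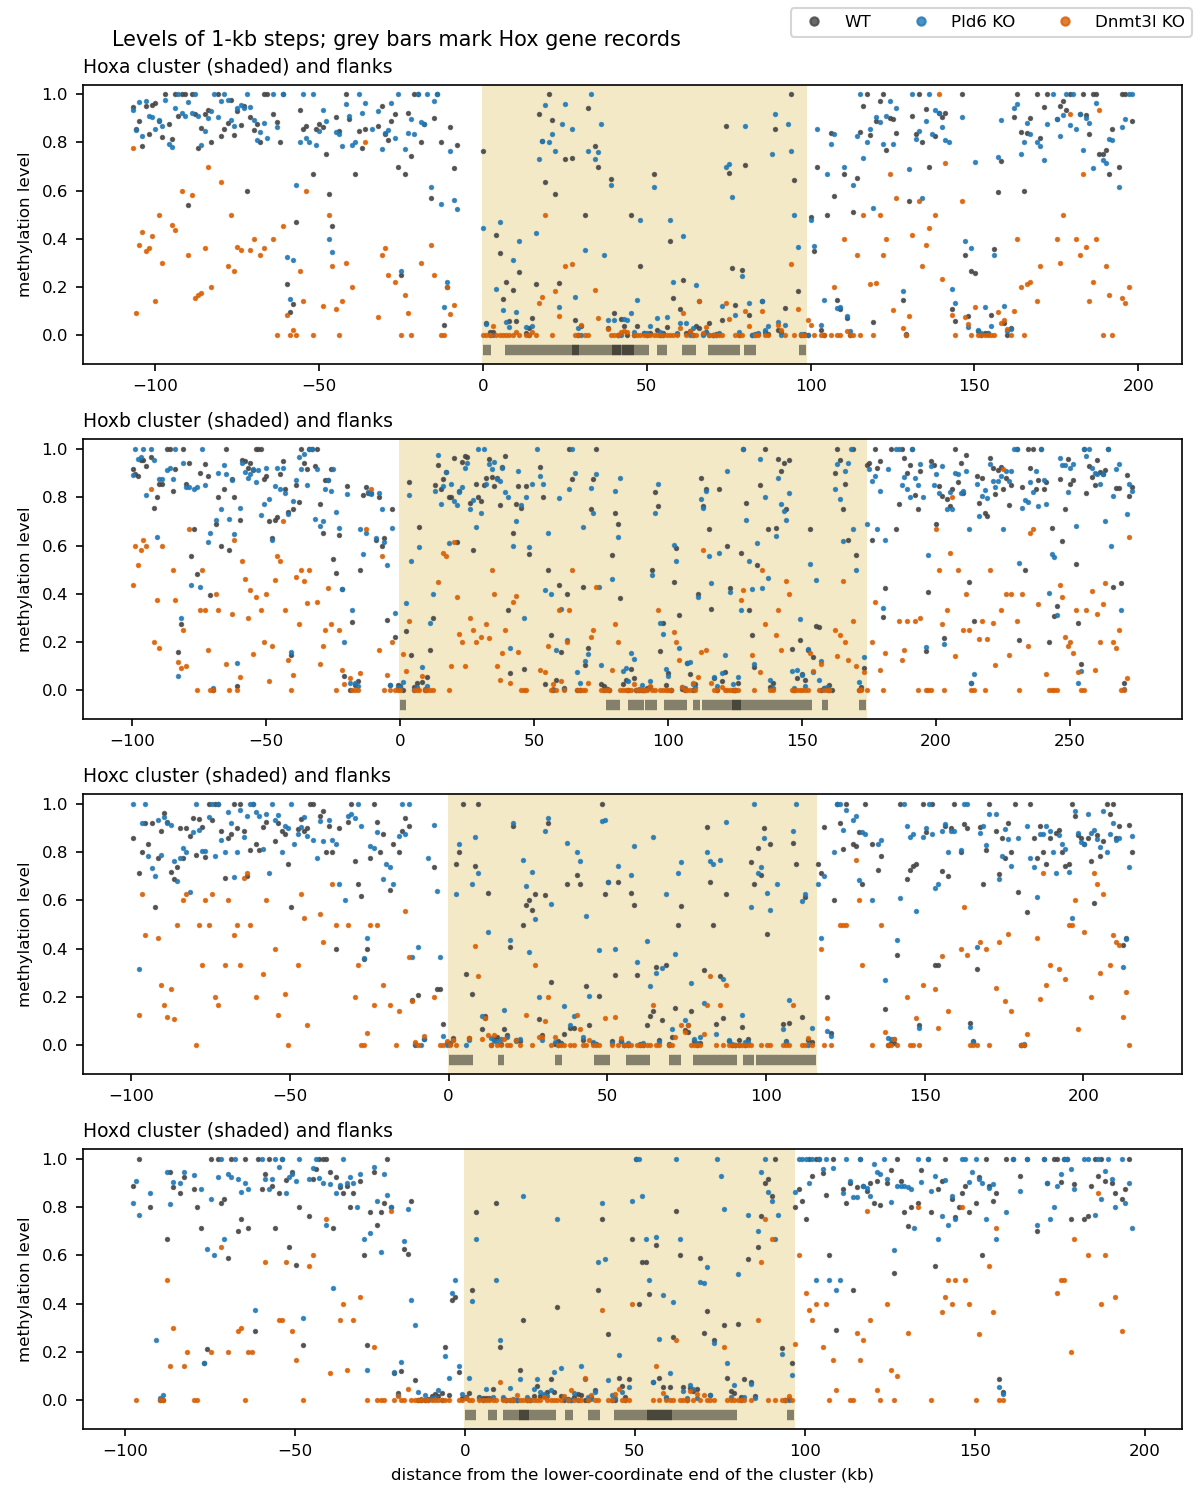
Methylation level (fraction, y axis) in 1-kb steps along the 4 Hox clusters (shaded) and their flanks, against distance from the cluster's lower-coordinate end (kb, x axis), in the 3 libraries. Steps in the clusters were low in 219 of 462 cases in WT spermatogonia, and the stretch between *Hoxb13* and *Hoxb9* carried the longest run of methylated steps, of 27 kb.

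The methylated steps of the clusters formed runs of up to 27 kb. There were 59 runs of methylated steps in WT, of which 26 were 1 kb long. The longest, 27 kb between *Hoxb13* and *Hoxb9* (chr11:96207001-96234000), stood at 0.884 (0.858 to 0.905) in WT, with 0.858 (0.835 to 0.877) in *Pld6* KO and 0.258 (0.213 to 0.310) in *Dnmt3l* KO spermatogonia, and 46.2% of its bases were in repeats. A run of 9 kb between *Hoxb2* and *Hoxb1* stood at 0.823, 0.753, and 0.229. Runs of 6 kb lay inside the *Hoxa3* record (0.780, 0.810, and 0.173), inside *Hoxb3* (0.838, 0.746, and 0.310), and between *Hoxd3* and *Hoxd1* (0.844, 0.844, and 0.400). In all 5 the *Dnmt3l* KO level was below the lower bound of the WT and *Pld6* KO intervals. *Hoxa3* and *Hoxb3* are long records whose introns span other start sites, and 13 of 29 steps inside *Hoxa3* alone and 18 of 36 inside *Hoxb3* alone were methylated in WT.

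Of the 11 cluster steps methylated in *Dnmt3l* KO spermatogonia, 5 lay between *Hoxb13* and *Hoxb9*, 3 between *Hoxd3* and *Hoxd1*, 2 inside *Hoxb3*, and 1 inside *Hoxa3*. The highest, between *Hoxd3* and *Hoxd1* (chr2:74756001-74757000), stood at 0.75 there, from 8 calls, and at 0.900 in WT, and all 8 *Pld6* KO calls in it were methylated. None of the 11 rested on more than 13 *Dnmt3l* KO calls, so their levels are known only roughly.

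Where steps of WT and *Pld6* KO differed by more than counting error, *Pld6* KO was mostly the higher. Of 339 cluster steps with at least 20 calls in each library, the interval of the difference lay above 0 in 31 (6.31% of steps genome-wide) and below 0 in 5 (5.77%). In a step over an exon of *Hoxb9* (chr11:96276001-96277000) the level was 0.381 in WT, with 0.879 in *Pld6* KO and 0 of 11 calls in *Dnmt3l* KO spermatogonia. In a *Hoxc4* intron (chr15:103032001-103033000), just before the curated start, it was 0.116, 0.597, and 0 of 14 calls. Over an exon of *Hoxd4* (chr2:74726001-74727000) it was 0.0526, 0.435, and 0.0312. These 3 places were low or intermediate in WT, and *Pld6* KO exceeded WT by 0.498, 0.481, and 0.383. The widest drop among these steps, of -0.189 (-0.407 to 0.0356) between *Hoxd8* and *Hoxd3*, had an interval that included 0.

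CpG density ordered the levels within the clusters, but the clusters were lower than other DNA of the same density. In steps with fewer than 10 CpG sites per kb, clusters stood at 0.623 in WT, flanks at 0.825, and the genome at 0.842. With 10 to 19 the levels were 0.466, 0.726, and 0.779, with 20 to 39 they were 0.0768, 0.189, and 0.504, and with 40 or more 0.0144, 0.0155, and 0.0385. The gap to the genome was thus widest at 20 to 39 sites per kb in WT, and also in *Pld6* KO, where clusters stood at 0.119 against 0.550. In *Dnmt3l* KO it was widest at 10 to 19, with clusters at 0.0964 against 0.343, and at 20 to 39 they stood at 0.0201 against 0.202. At the highest density clusters and flanks had overlapping intervals in WT. Repeat-rich DNA was more methylated than the rest of the clusters, but less than repeat-rich DNA in the flanks or the genome. CpG sites in bins with at least 50 repeat-masked bases stood at 0.499 (581 sites) in the clusters, against 0.118 for the other sites in WT, while genome-wide the values were 0.678 and 0.710. In the flanks they were 0.813 and 0.512. In *Pld6* KO spermatogonia the repeat-rich cluster sites stood at 0.449 (0.425 to 0.473), below WT at 0.499 (0.465 to 0.532). These intervals overlapped only at their ends, and no interval of the difference was taken. The other cluster sites stood at 0.154 in *Pld6* KO. In *Dnmt3l* KO spermatogonia the repeat-rich and the other cluster sites stood at 0.125 and 0.0356.

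**Figure D4:**
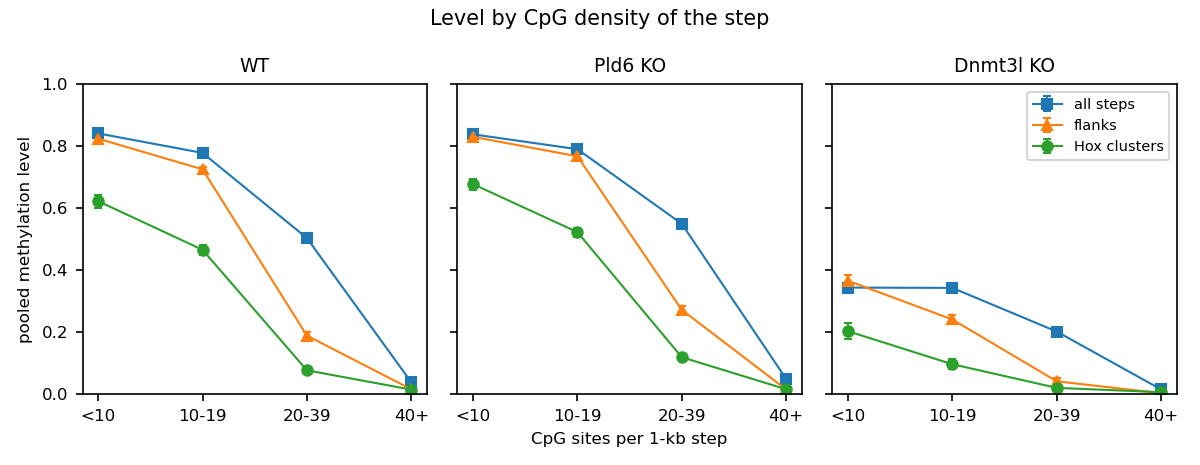
Methylation level (fraction, y axis) of 1-kb steps by CpG density class (sites per kb, x axis) in the Hox clusters, their flanks, and the genome, with 1 panel per library and 95% Wilson intervals of pooled calls. At 20 to 39 sites per kb the clusters stood at 0.0768 in WT spermatogonia, the flanks at 0.189, and the genome at 0.504.

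Runs of low 1-kb steps were among the longest in the genome in *Hoxa*, *Hoxb*, and *Hoxd* in WT spermatogonia, and in *Hoxa* and *Hoxd* in *Dnmt3l* KO. In *Pld6* KO the longest cluster runs were shorter at this step size. A run here is a set of adjoining low steps, bridging at most 2 steps with too few calls. In WT spermatogonia the longest was 12 kb in *Hoxa* (chr6:52224001-52236000, over *Hoxa9* and *Hoxa10*), 11 kb in *Hoxb* (*Hoxb8* and *Hoxb7*), 11 kb in *Hoxd* (*Hoxd9* and *Hoxd8*), and 7 kb in *Hoxc* (*Hoxc6* and *Hoxc5*). Of 31749 runs in the WT genome 23 reached 10 kb, with 1 each in *Hoxa*, *Hoxb*, and *Hoxd*, and the longest of all was 14 kb. In *Pld6* KO spermatogonia the longest runs were 7, 6, 4, and 8 kb in *Hoxa*, *Hoxb*, *Hoxc*, and *Hoxd*. In that library 17 of 33446 runs reached 10 kb, none of them in a cluster. From 59 to 1020 runs were at least as long as the longest of a cluster, against 130 for *Hoxc* in WT. The gap between WT and *Pld6* KO depended on the setting. The longest cluster run was 7 kb in both with steps of 0.5 kb and 12 kb in both with steps of 2 kb. With the mean of site levels it was 12 kb in WT and 7 kb in *Pld6* KO.

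In *Dnmt3l* KO spermatogonia low runs covered large parts of the clusters. The longest, of 61 kb in *Hoxd* (chr2:74647001-74708000), ran from beyond *Evx2* through *Hoxd13*, *Hoxd12*, *Hoxd11*, *Hoxd10*, and *Hoxd9* to *Hoxd8*, and was the longest of 165611 runs in that library. It held 58 low steps, the others having too few calls. *Hoxa* had a run of 31 kb from *Hoxa3* to *Hoxa9* (28 low steps), *Hoxc* of 16 kb (13 low steps), and *Hoxb* of 14 kb. Counting themselves, 2, 46, and 113 runs of that library were at least as long as these. Genome-wide 491 runs reached 10 kb, against 23 in WT, so long low runs were commoner genome-wide in this library. With steps of 0.5 kb the longest cluster run was 22 kb in *Dnmt3l* KO and 7 kb in both WT and *Pld6* KO. With the mean of site levels in place of pooled calls it was 31 kb in *Dnmt3l* KO.

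**Figure D5:**
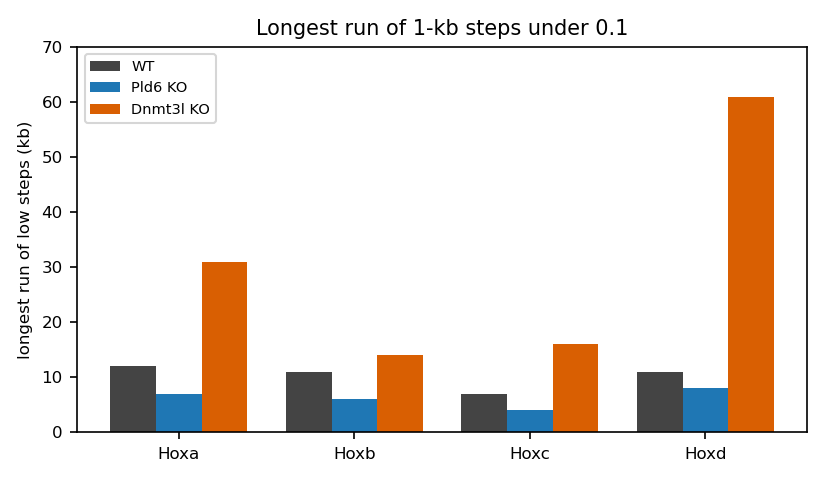
Longest run of adjoining low 1-kb steps (kb, y axis, from 0) in each Hox cluster in WT, *Pld6* KO, and *Dnmt3l* KO cells. The *Hoxd* run was 11 kb in WT, 8 kb in *Pld6* KO, and 61 kb in *Dnmt3l* KO spermatogonia.

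Many genes that lie beside or act with the Hox genes were low too, beside 39.1% of all promoters in WT. Most of their promoters held 20 or more CpG sites per kb. At that density 54.9% (20 to 39) and 85.0% (40 or more) of all promoters were low in WT. The counts below were not compared by density class. The *Evx* homeobox genes next to *Hoxa* and *Hoxd* had promoters of 0.0773, 0.157, and 0.0625 (*Evx1*) and 0.0569, 0.0723, and 0 of 77 calls (*Evx2*) in WT, *Pld6* KO, and *Dnmt3l* KO cells. Of the 6 caudal-type and ParaHox genes, relatives of the Hox genes outside the clusters, 3 were low in WT. *Cdx2* stood at 0.107, 0.184, and 0.0286, *Cdx4* at 0.186, 0.129, and 0 of 29 calls, and *Pdx1*, the pancreatic regulator, at 0.0180, 0.173, and 0 of 82 calls. *Pdx1* was higher in the *Pld6* KO library, by 0.155 (0.109 to 0.204).

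Among 9 genes for TALE homeodomain proteins, which bind DNA together with Hox proteins, 6 promoters were low in WT. *Meis3* stood at 0.862 in WT and 0.647 in *Pld6* KO, with 6 calls in *Dnmt3l* KO spermatogonia, too few for a level. *Pknox2* stood at 0.189 in WT, while *Meis1* had 0.00649. Of 14 Polycomb genes, whose products silence Hox genes, 10 were low. *Cbx7* was the highest of the other 4, at 0.836, 0.917, and 0.153, and *Kdm2b*, *Rnf2*, and *Cbx2* stood at 0.224, 0.186, and 0.102 in WT. Of 5 genes for trithorax-type proteins, which keep Hox genes active, 4 were low. *Kmt2a* had 0 methylated of 352 WT calls, and *Ash2l* stood at 0.164, 0.340, and 0 of 53 calls. Of the 3 nearest protein-coding genes on each side of each cluster, 22 without the *Evx* genes, 12 were low in WT, with *Skap1*, next to *Hoxb*, at 0.305, 0.151, and 0.0385.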

How the data were processed

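CpG methylation in P7 spermatogonia of 3 genotypes, 1 library each, was analysed from the deposited tables. Per the labels, DNA was made into libraries by post-bisulfite adaptor tagging and read from 1 end. The submitters' processing notes name Bismark and mm10, with no version given. The deposited tables hold, per site, the count of methylated and of unmethylated CpG calls and the fraction of methylated calls, which was used to check the counts. The 2 strands of a CpG share 1 row, sites were not filtered by coverage, and removal of duplicate reads is not given in the sources used here.

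Calls were summed over RefSeq promoters (2 kb before to 0.5 kb after the outermost gene start, at least 10 calls), clusters, flanks of 100 kb, and 1-kb steps (at least 5 calls) on GRCm38, the same assembly as mm10. A level below 0.1 was called low, a step at 0.5 or above methylated, and a decrease 0.3 or more. Levels carry 95% Wilson intervals and differences Newcombe intervals, and a count of 0 allows 3 calls of the total. With 1 library per genotype no test between genotypes was possible and no p-value is given. Scripts (python 3.11.15, numpy 2.4.6, pandas 2.3.3, scipy 1.17.1, matplotlib 3.10.9) were tested on simulated data. Other windows, call minimums, thresholds, site averaging, starts, and step sizes were tried as alternatives, as was a Fisher exact test on the calls.

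Any of the 38 genes could be named. Values in full were given for those with a WT promoter level of at least 0.1, for the lowest and highest of each cluster, and for the largest differences, and of the other lists for genes at 0.1 or above and up to 2 others. Sequences were limited to 4 members by highest and lowest WT level in the printed window. The members, lists, and thresholds were chosen with earlier results of these data known. A further gene of the family is not reported here.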

Additional observations from a re-analysis of the deposited data

Results flagged for a closer look

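A signal outside the Hox measurements was seen in the mitochondrial DNA, which is normally almost free of CpG methylation. Its CpG level was 0.354 in WT, with 0.383 in *Pld6* KO and 0.321 in *Dnmt3l* KO spermatogonia, from 30797, 45530, and 13047 calls. It was singled out because it lay far above the limit that a count of 0 would allow. It could not serve to estimate unconverted cytosines, and its part in the Hox levels was not tested.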

How the results depend on the processing

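Over 25 results, 139 of 172 alternative values stayed within 1.5 times the main count or run length, or within counting error of the main level, and 33 moved further. None reversed, but counts and levels have no sign to reverse. Only the *Dnmt3l* KO differences from WT at *Hoxb3*, *Hoxc4*, and *Hoxd4* could do so, and the direction of *Pld6* KO differences was not entered. With a promoter of 0.5 kb on each side of the start, the pooled Hox level was 0.0155 in WT, with 0.0247 in *Pld6* KO and 0.00714 in *Dnmt3l* KO, with 21 of 37 promoters higher in *Pld6* KO (50.9% of all) and 1 of 34 lower by 0.3 in *Dnmt3l* KO (12.7%), while the *Hoxb3* difference became -0.610. From 0.25 kb before to 0.05 kb after the start the levels were 0.00853, 0.0228, and 0.0105, with 10 of 29 promoters higher in *Pld6* KO (29.3%), 18 of 19 low in *Dnmt3l* KO (97%), and 0 of 18 lower by 0.3 (2.90%). With at least 30 calls, 1 of 35 was lower by 0.3 (11.7%). Over sites covered in all 3 libraries, a choice made after seeing the data, the pooled promoter levels were 0.0588 in WT and 0.0793 in *Pld6* KO, and the *Pld6* KO flanks 0.611. A two-sided Fisher exact test on the calls, adjusted by Benjamini-Hochberg over all promoters, compares these libraries and not the genotypes, and called 7 Hox promoters lower in *Dnmt3l* KO (42.7% of all) and 0 lower and 3 higher in *Pld6* KO (1.05% and 5.45%). The *Hoxc4* difference was -0.141 with the mean of site levels and -0.0844 at the curated start. With the mean of site levels the clusters stood at 0.142 in WT and 0.161 in *Pld6* KO, and the flanks at 0.567, 0.582, and 0.222. Without the stretch between *Hoxb13* and *Hoxb9*, left out after seeing the data, the clusters stood at 0.103, 0.139, and 0.0306. Flanks of 50 kb stood at 0.462, 0.525, and 0.168. The longest low run was 7 kb in WT, 7 kb in *Pld6* KO, and 22 kb in *Dnmt3l* KO with steps of 0.5 kb. It was 31 kb in *Dnmt3l* KO with the mean of site levels. The cause of these shifts was not tested. Fewer calls in the *Dnmt3l* KO library limit its levels at single promoters, where 10 calls were the fewest. No paired analysis was possible because there was 1 library per genotype and no test.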

Other observations

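The clusters also hold 29 noncoding RNA genes, 23 for long noncoding RNAs and 6 for miRNAs, and the same window before their starts was low at 18 of 29 in WT, with 17 in *Pld6* KO and 27 in *Dnmt3l* KO spermatogonia, beside 39.1%, 32.2%, and 69.3% of protein-coding promoters. *Hoxb5os*, an antisense transcript in *Hoxb*, stood at 0.820 (41 of 50 calls) in WT, with 0.768 (63 of 82) in *Pld6* KO and 0.270 (10 of 37) in *Dnmt3l* KO spermatogonia. Its window overlaps that of *Hoxb3* on the other strand and so shares calls with it. *Mir10a*, in *Hoxb*, stood at 0.486, 0.578, and 0 of 26 calls, and its window overlaps that of *Hoxb4*.

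The level was higher in *Pld6* KO than in WT at 20 of 29 noncoding genes, beside 61.5% of protein-coding promoters, and the interval of the difference lay wholly above 0 at 3, beside 16.0%. *Hotair*, a long noncoding RNA gene of *Hoxc*, stood at 0.231 in WT, with 0.397 in *Pld6* KO and 0.0652 in *Dnmt3l* KO, with a difference of *Pld6* KO from WT of 0.166 (0.0503 to 0.275). *Mir10b*, in *Hoxd*, stood at 0.215, 0.413, and 0.0308, with a difference of 0.198 (0.0808 to 0.305). The third, *Gm52902*, stood at 0.0115 in WT and 0.0714 in *Pld6* KO. Its window overlaps that of *Hoxa9* and so shares calls with it. The *Mir10b* window likewise overlaps the step over an exon of *Hoxd4* given above. *Hoxb5os*, *Mir10a*, *Hotair*, *Mir10b*, and *Gm52902* were picked for their levels after these were seen. miRNAs are cut from longer transcripts, so the window before a miRNA gene need not be its promoter.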
